A study of Homo sapiens with 24 samples.

Results

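Box H/ACA small nucleolar RNAs (snoRNAs) were the entries of the authors' peak table whose annotated name begins with SNORA and a digit. They comprised 39 of the 24041 peaks and 31 of the 6088 genes in that table. The study compared untreated 293S cells, a human embryonic kidney line grown as an adherent monolayer, with 293S cells exposed for 30 min to sodium arsenite at 1 mM. The miRNA-binding protein Ago2 was crosslinked to RNA and immunoprecipitated (CLIP), RNA of the same cells was sequenced, and a further CLIP fraction called the LO band served to count miRNAs. Each of these 3 assays was made untreated and with arsenite in 4 biological replicates, which gave 24 samples in 6 groups. The deposited tables give values over all replicates together and none of a single sample. No spread between replicates, test or sequencing depth could therefore be given for any peak, and RNA-seq values were not analysed here. All samples came from 1 cell line. Of 5 genes listed as marks of 293S cells, 3 (NEFL, HOXA9 and HOXD10) carried peaks, while NEFM and PAX2 did not. Of 11 marker genes of other cell types 0 did, but a gene without an Ago2 peak may still be expressed.

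H/ACA snoRNAs fold into a pair of hairpins that end in the conserved H and ACA boxes. They guide the pseudouridine synthase dyskerin, together with NHP2, NOP10 and GAR1, to uridines of ribosomal and spliceosomal RNAs. Most are cut out of introns of host genes and act in the nucleolus. Some are also known to yield short fragments that enter Argonaute proteins, and a few miRBase hairpins lie within H/ACA genes.

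Only a minority of the H/ACA peaks held a match to one of the 50 miRNA seed families that the authors searched as 7-nucleotide seeds. A match was listed for 6 of 39 peaks (15.4%), against 31.5% of all peaks and 21.5% of peaks in exons of noncoding RNAs. The low share was not particular to H/ACA snoRNAs. A match was listed for 9 of 66 peaks of box C/D snoRNAs and 3 of 25 peaks of Cajal body RNAs, classes described below. The 6 H/ACA peaks lay in SNORA74A, SNORA31, SNORA67, SNORA65, SNORA30 and SNORA6. Below are the most abundant members of the matched families in the LO band libraries, and both miR-19 forms, because these sequences define what was matched. The sequences are from RefSeq (GRCh38.p14), 5′ to 3′, with the seed (bases 2 to 8) in capitals.
miR-19b-3p (SNORA74A and SNORA31): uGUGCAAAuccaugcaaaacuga
miR-19a-3p (SNORA74A and SNORA31): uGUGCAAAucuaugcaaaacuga
miR-301a-3p (SNORA31): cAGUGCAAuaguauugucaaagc
miR-186-3p (SNORA67): gCCCAAAGgugaauuuuuuggg
miR-10a-5p (SNORA65): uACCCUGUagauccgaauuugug
miR-31-5p (SNORA30): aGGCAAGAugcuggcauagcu
miR-125b-5p (SNORA6): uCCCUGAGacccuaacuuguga
miR-193b-3p (SNORA6): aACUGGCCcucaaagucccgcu
The complements of the miR-19 and miR-301a seeds, UUUGCAC and UUGCACU, share 6 bases, so 1 stretch of RNA can match both families. SNORA31 is one of 204 peaks listed with both, which is 36.7% of the miR-19 peaks and 48.9% of the miR-301a peaks. In the authors' deposited table, miR-19b-3p was the most abundant of these miRNAs, with means of 851532 untreated and 780741 with arsenite (log2 fold change -0.13, DESeq adjusted p = 1). The authors' deposited table gives miR-31-5p means of 641871 and 467905 (log2 fold change -0.46, DESeq adjusted p = 1). The family matched by SNORA65 was the scarcest, as miR-10a-5p had means of 8492 and 10764 in the authors' deposited table. The 6 H/ACA peaks with a match had a median log ratio of 1.63 and the 33 without one a median of 1.54.

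The CLIP comparison addressed whether arsenite altered how much H/ACA snoRNA was recovered with Ago2. Every peak carries 2 deposited values, a log average of normalized CLIP abundance (arsenite and untreated together) and a log ratio (arsenite divided by untreated). These values are the authors', and neither the log base nor the normalizer is stated, so they are printed as deposited and not turned into folds. The headers do not say whether the normalizer was the size of a library or the amount of the RNA, and more Ago2 on each RNA cannot be told apart from more of the RNA. In such bulk libraries a shift in all cells and a larger one in some of them cannot be told apart either.

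Nearly all H/ACA peaks had higher signal in arsenite-treated cells. Of the 39 peaks, 37 had a log ratio above 0 (94.9%, Wilson 95% interval 83.1 to 98.6%), against 70.3% of all peaks. The median log ratio was 1.54 (binomial 95% interval of the median 1.11 to 2.09), the quartiles were 0.86 and 2.43, and the values ran from -0.34 to 4.14. Over all peaks the median was 0.65. Of the H/ACA peaks, 21 (53.8%) exceeded the upper quartile of all peaks, 1.49, against a background of 25% of all peaks. Of noncoding-exon peaks 13.1% did, H/ACA peaks included, and 7.6% without the H/ACA, C/D and Cajal body RNAs. Peaks of 1 gene share their source, so these intervals are too narrow and cover counting over peaks only. With 1 peak per gene, that of the highest log average, all 31 genes lay above 0, against 79.9% of all genes. The median was then 1.62 against 1.10, and 54.8% of the 31 genes exceeded 1.49, against 36.8% of all genes.

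H/ACA snoRNAs lay between the other small RNA classes of the nucleolus and Cajal body. The 66 peaks of box C/D snoRNAs, which guide ribose methylation, had a median of 2.45, and 65 of them were above 0. The 25 peaks of Cajal body RNAs, which guide modification of spliceosomal RNAs, had a median of 0.33, and 15 were above 0. These 25 peaks came from only 8 genes. With 1 peak per gene, that of the highest log average, the Cajal body median was 0.92, and 6 of the 8 genes lay above 0. Their values ran from -1.16 to 3.19. By that measure the H/ACA median was 1.62 and the C/D median 2.42, so the order of the classes stayed. The other 1188 peaks in noncoding exons, from 222 genes, had a median of -0.27, and 37.4% of them lay above 0. The lower quartile of the C/D peaks, 1.83, was above the H/ACA median, while the ranges of both classes overlapped. These differences between classes could not be tested across replicates.

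**Figure D1:**
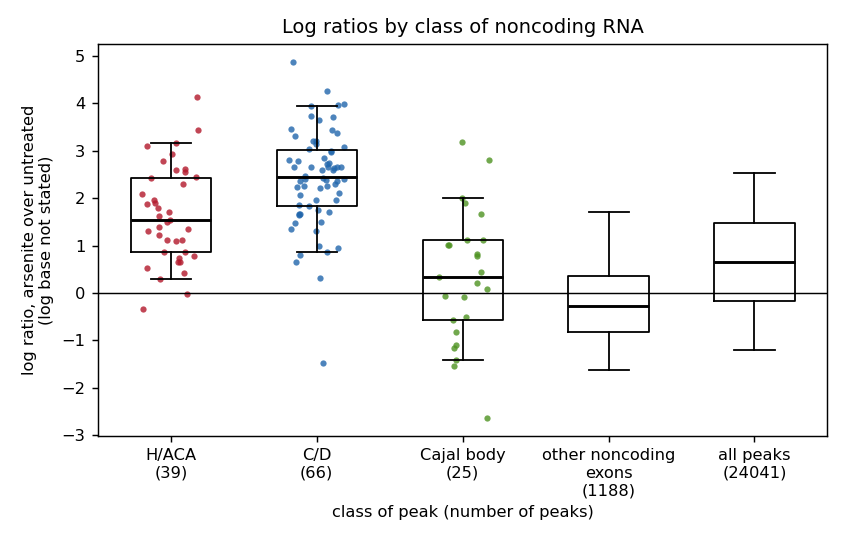
Log ratio of Ago2 CLIP signal, arsenite over untreated, by class of peak. Boxes give the quartiles and median, whiskers the central 90% of peaks, and points single peaks for the 3 small classes; the H/ACA median of 1.54 sits below the C/D median of 2.45 and above the median of all peaks, 0.65.

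By the median over its peaks, each H/ACA gene fell into one of a few ranges of the log ratio. In 10 genes it was above 2: SNORA71D (3.44), SNORA67 (3.35), SNORA48 (3.17), SNORA52 (3.10), SNORA31 (2.94), SNORA56 (2.61), SNORA14B (2.60), SNORA4 (2.54), SNORA33 (2.44) and SNORA45 (2.42). In 11 genes it lay between 1 and 2: SNORA14A (1.96), SNORA44 (1.89), SNORA74A (1.87), SNORA71B (1.85), SNORA80B (1.80), SNORA3 (1.52), SNORA42 (1.36), SNORA32 (1.30), SNORA65 (1.23), SNORA30 (1.12) and SNORA60 (1.11). In 9 genes it lay between 0 and 1: SNORA62 (0.94), SNORA49 (0.86), SNORA23 (0.86), SNORA6 (0.85), SNORA75 (0.73), SNORA38 (0.66), SNORA9 (0.65), SNORA61 (0.52) and SNORA69 (0.43). SNORA63 was the 1 gene with a median that was not above 0, at -0.027. By the same measure 81.3% of all 6088 genes lay above 0, around a median of 0.91, against 1.52 for the H/ACA genes. A value between 0 and 1 is therefore usual in this data set. Shares of all genes above 1 or 2 were not computed.

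**Figure D2:**
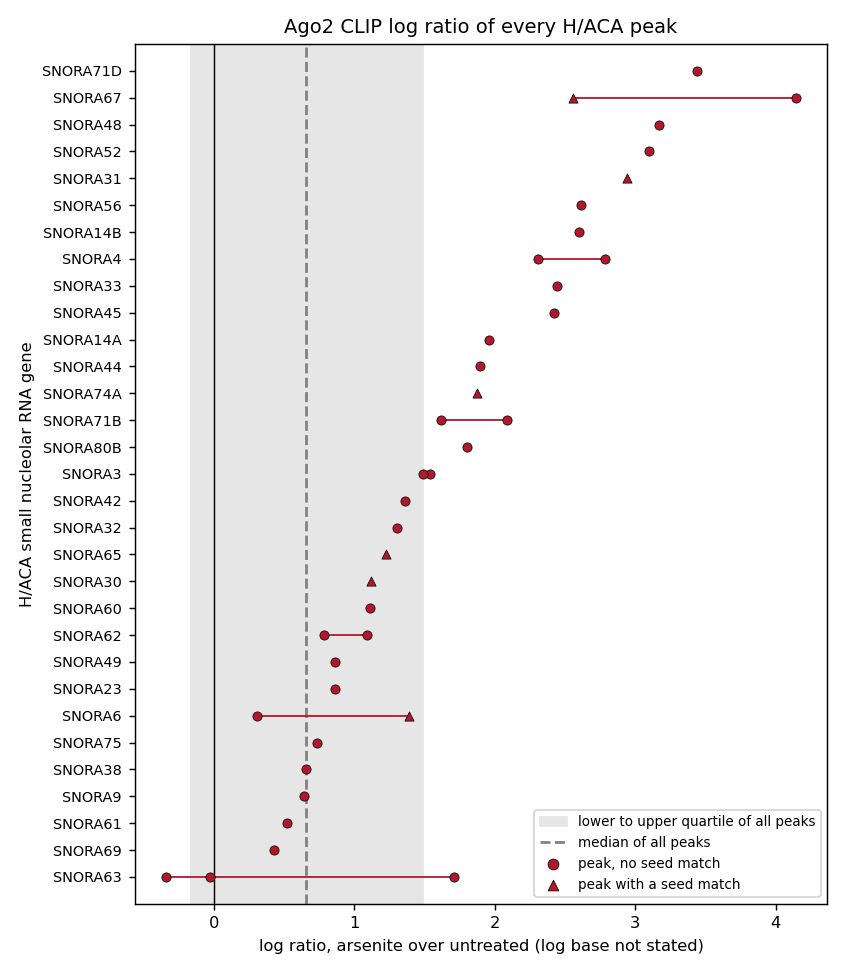
Log ratio, arsenite over untreated, of each of the 39 H/ACA peaks, 1 row per gene in the order of the gene medians, with lines joining peaks of 1 gene. The grey band spans the quartiles of all peaks and the dashed line is their median, 0.65; only the 2 lower peaks of SNORA63 lie below 0.

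The most strongly covered H/ACA peaks reached the top of the whole table. The deposited log averages are not stated to be per length, so their order between genes is that of the table only. SNORA74A (U19), a guide for large-subunit ribosomal RNA, held the highest log average of all 24041 peaks, 4.01, with a log ratio of 1.87, at a peak of 35 nucleotides (hg19, chromosome 5, 138614605 to 138614639, plus strand). SNORA33 had the third highest log average, 2.32, with a log ratio of 2.44 over 61 nucleotides (chromosome 6, 133138425 to 133138485, plus strand). These 2 were the only H/ACA peaks among the 100 highest averages.

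The next members by log average were far lower. SNORA67 (U67) had a log average of -0.39 and a log ratio of 2.56 at its longer peak of 73 nucleotides (chromosome 17, 7481325 to 7481397, plus strand). SNORA65 (U65) had a log average of -0.80 and a log ratio of 1.23 over 56 nucleotides (chromosome 9, 130210815 to 130210870, minus strand). SNORA14A, a guide for small-subunit ribosomal RNA, had -0.81 and 1.96 over 34 nucleotides (chromosome 7, 75573168 to 75573201, plus strand). All 3 stood above the table's upper quartile of log averages, -4.02, by a wide margin. SNORA80B had a log average of -0.94 and a log ratio of 1.80 over 74 nucleotides (chromosome 2, 10586848 to 10586921, minus strand). SNORA9 had a log average of -1.12 and a log ratio of only 0.65 over 70 nucleotides (chromosome 7, 45025040 to 45025109, minus strand). SNORA52, a guide for large-subunit ribosomal RNA, had -1.34 and 3.10 over 66 nucleotides (chromosome 11, 811745 to 811810, plus strand).

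In all, 13 of the 39 H/ACA peaks lay in the upper quartile of log averages. Log ratios of those 13 ran from 0.65 to 4.14 around a median of 2.31, and those of the other 26 ran from -0.34 to 3.44 around a median of 1.33. The groups overlapped widely. With 1 peak per gene, Spearman's rho between log average and log ratio was 0.11 over the 31 genes, as a description of values that come from the same libraries. Between peak length, which ran from 27 to 79 nucleotides with a median of 48, and log ratio it was 0.10 over the 39 peaks.

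**Figure D3:**
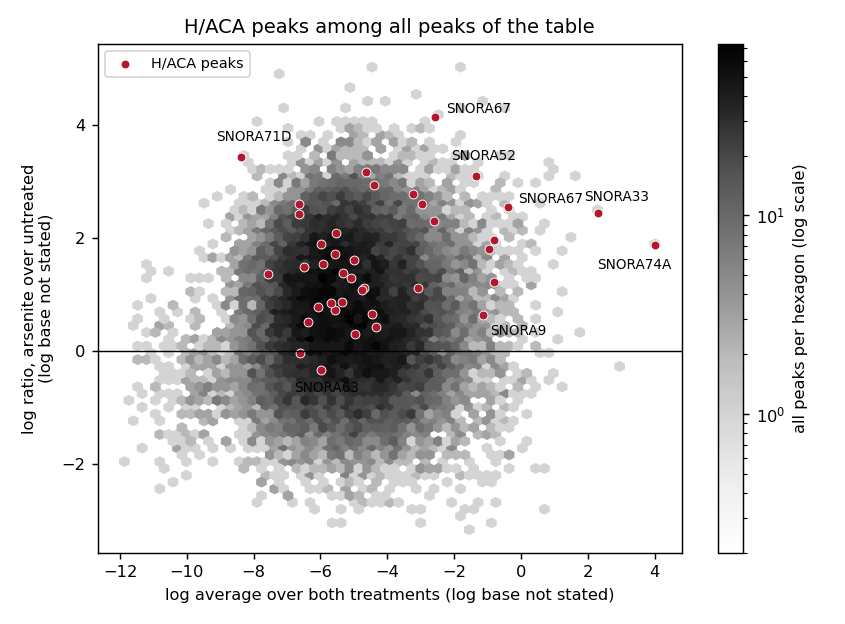
Log ratio, arsenite over untreated, against log average over both treatments for all peaks (grey hexagons, darker with more peaks on a log scale) and the 39 H/ACA peaks (red points). SNORA74A and SNORA33 lie at the right edge with averages of 4.01 and 2.32, and SNORA71D is the H/ACA peak farthest left, at -8.38.

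The 5 highest log ratios came from 5 genes of differing coverage. The shorter SNORA67 peak had 4.14, at or above 99.95% of all peaks, at a log average of -2.56 (chromosome 17, 7481377 to 7481408, plus strand, 32 nucleotides). SNORA71D (U71d), a guide for small-subunit ribosomal RNA, had 3.44 at the lowest log average of any H/ACA peak, -8.38 (chromosome 20, 37062512 to 37062590, minus strand, 79 nucleotides). SNORA48 had 3.17 at -4.62 (chromosome 17, 7478058 to 7478093, plus strand, 36 nucleotides). SNORA52 followed with 3.10, as given above. The fifth was SNORA31, a gene in which variants are linked to susceptibility to herpes simplex encephalitis, with 2.94 at -4.41 (chromosome 13, 45911683 to 45911730, minus strand, 48 nucleotides).

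The 5 lowest log ratios came from 4 genes. SNORA63 (E3) had -0.34 at chromosome 3, 186505170 to 186505217 (plus strand, 48 nucleotides, log average -5.98) and -0.027 at 186505138 to 186505164 (27 nucleotides, log average -6.61). SNORA6 had 0.31 at 1 of its 2 peaks (chromosome 3, 39449969 to 39450024, plus strand, 56 nucleotides, log average -4.97). SNORA69 (U69) had 0.43 (chromosome X, 118921374 to 118921409, minus strand, 36 nucleotides, log average -4.33). SNORA61 had 0.52 (chromosome 1, 28906374 to 28906405, minus strand, 32 nucleotides, log average -6.38). None of these 5 peaks held a seed match, which 33 of all 39 H/ACA peaks lacked. All 5 had log averages below the upper quartile of the table, as did 26 of the 39.

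Signal differed along single snoRNAs. Of the 31 genes, 24 had 1 peak and 7 had more, which gave 9 pairs of peaks within a gene, 4 of them sharing nucleotides. SNORA63 varied most: the 78-nucleotide peak (chromosome 3, 186505087 to 186505164) had a log ratio of 1.71, while the 27-nucleotide peak inside it had -0.027 and the downstream peak, 5 nucleotides beyond, had -0.34. The log ratio of SNORA63 was thus above 0 only at its highest-average peak. In SNORA67 the order was the other way, with 2.56 at the longer peak and 4.14 at the peak that shares its last 21 nucleotides. SNORA6 had 1.39 at its 5′ peak, which carries the miR-125 and miR-193 matches, and 0.31 at the 3′ peak 2 nucleotides away. The remaining genes differed less. SNORA4 had 2.31 and 2.78, SNORA71B 2.09 and 1.62, SNORA62 (E2) 0.78 and 1.09, and SNORA3 1.49 and 1.54, each from 5′ to 3′. Where peaks share nucleotides, they may share reads, whose assignment is not stated, and they are not taken as independent values.

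Several H/ACA genes are copies of one another, and reads from similar copies may have been split or assigned to either. RefSeq gives SNORA14A and SNORA14B, SNORA71B and SNORA71D, SNORA3 and SNORA45 (now SNORA3A and SNORA3B), and SNORA80B and SNORA42 (now SNORA80E) a shared family name. Within these families the log ratios were 1.96 and 2.60, 1.85 and 3.44, 1.52 and 2.42, and 1.80 and 1.36 respectively. The log averages lay far apart in 2 families, at -0.81 and -6.65 in SNORA14 and at -0.94 and -7.58 in SNORA80. Their values are uncertain to the extent that the authors' unstated handling of reads with several matches divided them.

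The second question was whether H/ACA snoRNAs moved with the exons of the genes that hold them. All 31 genes matched a RefSeq accession and lay inside a host gene, on the same strand where the table gives one (POR and SNHG15 have none), with 25 host loci in all, 6 of them holding more than 1 member. Exon peaks were listed for the hosts of 22 snoRNAs, in 18 host genes, and for the other 9 snoRNAs the host had no listed peak. Those 9 were SNORA61 and SNORA44 in SNHG12, SNORA71B and SNORA71D in SNHG17, SNORA60 in SNHG11, SNORA32 in TAF1D, SNORA31 in TPT1, SNORA14A in POR and SNORA69 in RPL39.

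Log ratios of H/ACA snoRNAs were not ordered like those of their hosts. The snoRNA median was higher than the median of the host's exon peaks in 12 of 22 cases and lower in 10, with a median difference of 0.39 and a range from -1.81 to 2.81. The lowest difference, SNORA63 in EIF4A2, turned at the peaks of the highest average, with 1.71 for SNORA63 and -0.37 for EIF4A2. At the other end SNORA67 stayed above EIF4A1 by that measure, with 2.56 and 0.15. Spearman's rho between snoRNA and host medians was -0.051 over the 22 snoRNAs, which is a description, since snoRNAs of 1 host share its value. Of the 21 snoRNAs whose host had at least 2 peaks, 5 lay above the whole range of the host's peaks, 5 below it and 11 within it. All 5 below it lay in RPL27A, RPSA or SNHG15, which had only 2 peaks each. RPS12, the host of SNORA33 among those above, also had only 2. A range of 2 values is easily left, and snoRNAs of 1 host share it, so these counts are no balanced split. For C/D snoRNAs the snoRNA was higher in 35 of 43 cases, with a median difference of 1.15.

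The largest gaps were in EIF4A1, which encodes the helicase of the cap-binding complex. Its 6 exon peaks had log ratios from -0.34 to 1.50 (median 0.54), whereas SNORA67 and SNORA48 in its introns had 3.35 and 3.17. SNORA14B stood 2.03 above TOMM20, a mitochondrial import receptor whose 13 peaks had a median of 0.57. SNORA52, at 3.10, lay above the 4 peaks of RPLP2, a ribosomal stalk protein gene, which ran from -0.12 to 1.58. SNORA33, at 2.44, was above the peaks of RPS12, at 1.85 and 1.97. SNORA56 lies in DKC1, the gene of dyskerin itself, and its 2.61 compared with a median of 1.08 over 6 peaks of DKC1, from -0.71 to 2.99.

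Other hosts exceeded some or all of their snoRNAs by the medians. Both members in RPL27A, SNORA3 at 1.52 and SNORA45 at 2.42, were below its 2 exon peaks, at 2.60 and 3.10. Both members in RPSA, SNORA6 at 0.85 and SNORA62 at 0.94, were below its peaks at 1.05 and 1.79. SNORA75, at 0.73, compared with a median of 1.63 over the 24 peaks of its host NCL, the gene of nucleolin. SNORA9 at 0.65 was below both peaks of SNHG15, at 0.73 and 2.73. SNORA63 and SNORA4 share the host EIF4A2, whose 5 peaks had a median of 1.78. That median was above SNORA63, at -0.027, but below SNORA4, at 2.54. The remaining differences, snoRNA minus host, were smaller than in EIF4A1. They were -0.25 for SNORA23 in IPO7, -0.16 for SNORA65 in RPL12 and -0.070 for SNORA74A, which RefSeq places in both SNHG4 and MATR3, against MATR3, the one of them with exon peaks. They were above 0 for SNORA49 in EP400 (0.25), SNORA80B in ODC1 (0.60), SNORA38 in PRRC2A (0.82), SNORA30 in SRCAP (1.04) and SNORA42 in KIAA0907 (1.18).

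**Figure D4:**
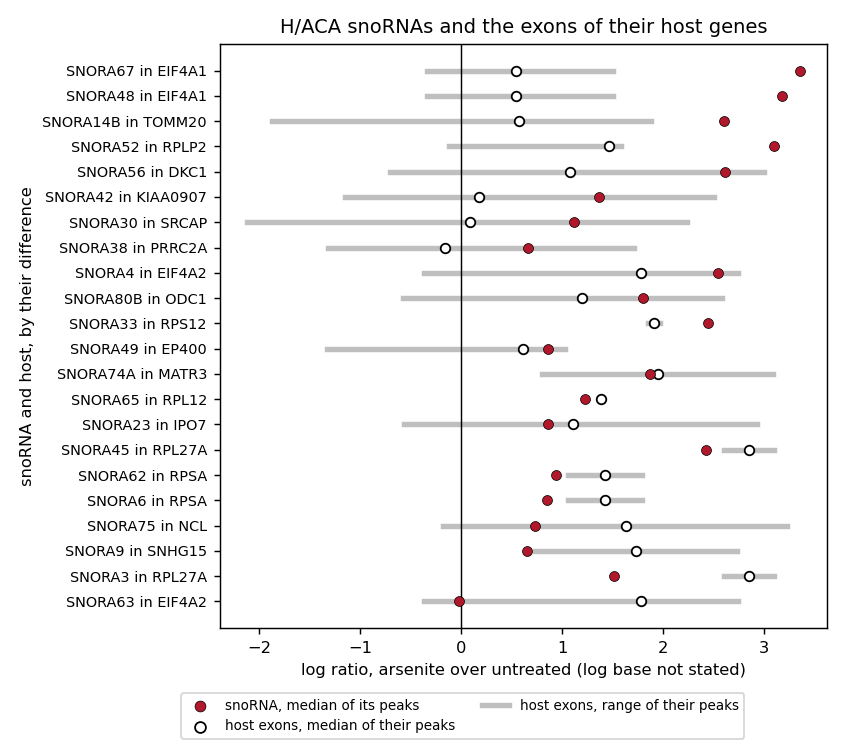
Log ratio, arsenite over untreated, of 22 H/ACA snoRNAs (red, median of their peaks) and of exon peaks of their host genes (white circle, median; grey bar, range), ordered by the difference. The snoRNAs in EIF4A1 lie at the right, at 3.35 and 3.17, beyond the exon peaks, and the order of the hosts does not follow that of the snoRNAs.

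In all, 6 hosts held both kinds of snoRNA, which sets them side by side within a transcript. The C/D median was higher than the H/ACA median in 5 of 6 hosts, with a median difference of 0.66. At the peak of the highest average it was also higher in 5 of 6, but the exception was then EIF4A2 (difference -0.66) and no longer EIF4A1 (0.11). The difference was large in SNHG12, where SNORD99 had 4.26 and SNORA44 and SNORA61 had 1.89 and 0.52, and in NCL, where SNORD20 and SNORD82 had 2.67 and 3.07 against 0.73 for SNORA75. In TAF1D, SNORD5 and SNORD6 had 2.42 and 2.66 against 1.30 for SNORA32. In RPS12 the class medians lay 0.016 apart. In EIF4A2 they lay 0.090 apart, with SNORD2 at 1.35 between SNORA4 at 2.54 and SNORA63 at -0.027, and in EIF4A1 SNORD10, at 2.88, was below both H/ACA members.

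A list drawn up as H/ACA host genes was near the background. It adds genes that host none of the members and lacks TOMM20, SRCAP, EP400, ODC1, KIAA0907, POR and RPL39. Of the added genes, GAS5, SNHG1 and RPL21 were found here only as hosts of C/D snoRNAs. The list was not checked for H/ACA snoRNAs without peaks, so it may not hold H/ACA hosts only. Of its 42 genes 33 carried peaks, and 26 of the 33 had a log ratio above 0 at the peak of the highest average, with a median of 1.20, against 79.9% and 1.10 for all genes. With the median over each gene's own peaks, 28 of 33 lay above 0, with a median of 0.80, against 81.3% and 0.91 for all genes. By each gene's highest-average peak alone, the top genes were PABPC4, a poly(A)-binding protein (3.91), TCP1, a chaperonin subunit (3.71), and the ribosomal protein gene RPL30 (3.01). These are single peaks, and the medians over all peaks were 0.53 for PABPC4 (7 peaks), 0.71 for TCP1 (10 peaks) and 2.18 for RPL30 (3 peaks). By the same single peaks PRRC2A (-1.32), SNHG8 (-0.45) and EIF4A2 (-0.37) were lowest, although EIF4A2 had a median of 1.78 over its 5 peaks. The list's median was 0.67 over all of its 207 peaks.

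The mRNAs of the proteins that work with H/ACA snoRNAs were sparsely covered. Of the 6 core and early assembly proteins, peaks were listed only for NOP10, with 3.73 at 1 coding sequence peak, and DKC1, with 0.36 at its peak of the highest average. Among 4 listed assembly factors, NOLC1, a nucleolar and Cajal body chaperone, had -0.038, and TCOF1, the treacle protein of the nucleolus, had 1.19 at that peak. Over all peaks their order was the other way, with medians of 0.92 for NOLC1 (4 peaks) and 0.21 for TCOF1 (5 peaks). The mRNAs of NHP2, GAR1, NAF1 and SHQ1, and of the other listed assembly factors, RUVBL1 and RUVBL2, had no listed peak. Of 12 pseudouridine synthases that work without a guide RNA, 5 carried peaks and all 5 were above 0 at the peak of the highest average: PUSL1 (2.30), TRUB1 (1.01), RPUSD4 (0.73), RPUSD1 (0.39) and PUS1 (0.33). The median over the 2 peaks of RPUSD1 was -0.44, so 4 of the 5 lay above 0 by that measure. The share of all genes above 0 was 79.9% at the peak of the highest average and 81.3% by the median.

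The third question concerned miRNAs whose hairpins lie in H/ACA genes, read in the LO band libraries. None of the genes that hold them (SNORA36B, SNORA36A, SNORA81, SNORA84 and SNORA2C, formerly SNORA34) is among the 31 with CLIP peaks. The listed products were scarce: 7 entries, of which 2 had a mean of at least 20, and the mature forms together made up 0.0009% of the summed means of mature miRNAs. The 2 arms of miR-664, from SNORA36B, carry most of it, and their sequences from RefSeq (where they are named miR-664a) are shown with the seed in capitals.
miR-664-3p: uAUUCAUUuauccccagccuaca
miR-664-5p: aCUGGCUAgggaaaaugauuggau
In the authors' deposited table the 3p arm had means of 94.2 untreated and 117.5 with arsenite (log2 fold change 0.32, DESeq p = 0.433, adjusted p = 1). For the 5p arm the authors' deposited table gives 57.2 and 52.5 (log2 fold change -0.12, DESeq p = 0.918, adjusted p = 1). The arms differed in sign, and neither passed the authors' test. An adjusted p below 0.05 was reached by 0% of the 1213 entries and an unadjusted one by 1.98% (24 entries) in the authors' deposited table, which does not make the treatments alike.

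The other entries held only traces of reads. The stem downstream of miR-1248, in SNORA81 within EIF4A2, had means of 13.8 and 4.61 in the authors' deposited table (DESeq p = 0.364, adjusted p = 1), and that of miR-1291, in SNORA2C, had 1.00 and 2.81 in the authors' deposited table. The mature miR-3651, in SNORA84, was listed at 2.88 untreated and 0 with arsenite, and its upstream stem at 0 and 3.64, in the authors' deposited table. The upstream stem of miR-664-5p was listed at 4.72 and 0 in the authors' deposited table. Every DESeq adjusted p for these entries in the authors' deposited table was 1.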

How the data were processed

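Per the labels, 293S cells with and without arsenite gave libraries of 3 kinds (Ago2 CLIP, its LO band, RNA-seq), 4 replicates per group. Tools named in the submitters' processing notes, with no role or order, are TopHat, DESeq and Bowtie 0.12.8, and the build named is hg19. The sources used here do not give the peak caller or the CLIP normalization. The CLIP log averages and log ratios are treated as score values as deposited, since the authors' log base is not stated. In the miRNA table (miRBase 18) the authors deposited signal means (counts divided by size factors), their ratio, its log2 value, p-values and adjusted p-values. The tables hold 0 columns of single samples, so the planned limma or edgeR fits across replicates were not possible, depth is unknown, and counts, medians and ranges are given instead.

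Computed here with Python 3.11.15, pandas 2.3.3 and scipy 1.17.1 were the peak length (end minus start plus 1; the first base's number is not stated), medians with binomial intervals, Wilson intervals, and hosts, taken as RefSeq genes of GRCh38.p14 that enclose the snoRNA on its strand (where given), by accession and with no coordinates carried between builds. Every member is named. Positions are given for the 8 highest log averages and the 5 highest and 5 lowest log ratios, and lists are shown by their 3 highest and 3 lowest genes. The members and lists were chosen with earlier results of these data known.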

Additional observations from a re-analysis of the deposited data

How the results depend on the processing

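No paired analysis was possible because the tables hold no values of single replicates, and for the same reason no replicate could be left out. The median log ratio of H/ACA peaks, 1.54, ranged from 1.23 to 1.62 over 8 alternatives and was lowest without the genes that share a RefSeq family name with another member (chosen after seeing the data). The share of H/ACA peaks above 0 was 100% (31 of 31) with 1 peak per gene and 100% (36 of 36) without SNORA63, and otherwise 93.1 to 97.1%. The H/ACA median minus the C/D median, -0.91, ranged from -0.93 to -0.66 over 7 alternatives. The planned ones gave -0.93 to -0.80. The values -0.66 and -0.67 were not planned and rest on the 6 hosts that hold both kinds. They are medians of differences within hosts, not differences of class medians. The median of peaks in the listed host genes, 0.67, was 1.20 with 1 peak per gene and otherwise 0.53 to 0.80. For SNORA63 the sign turned, from 1.71 at the peak of the highest average to -0.027 for the median over its peaks. The protein list had a median of 0.78, or 1.00 with a median per gene. The miRNA list had 0.10 with the filter on the mean, over 2 entries. Without the filter the median over 4 entries could not differ. The added stems, miR-1248 at -1.59 and miR-1291 at 1.49, lie on either side of the 2 kept values. Entries listed at 0 in 1 treatment were in neither. Read depth is unknown.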

Other observations

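The H/ACA peaks were grouped by the kind of host gene after the values were seen. The 8 peaks in the translation initiation factor genes EIF4A1 and EIF4A2 had the highest median log ratio, 2.43. They also held the only 2 H/ACA values that were not above 0. These 8 peaks came from only 4 snoRNA genes, and some peaks within SNORA67, SNORA4 and SNORA63 share nucleotides. The 8 peaks in SNHG genes (that of SNORA74A, in SNHG4 and MATR3, included), hosts known mainly for the snoRNAs they carry, had a median of 1.74 (range 0.52 to 3.44). The 11 peaks in ribosomal protein genes had a median of 1.39 (0.31 to 3.10), and the 12 peaks in other genes a median of 1.33 (0.66 to 2.94). The ranges of all 4 groups overlapped, and their differences were not tested.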
